A study of Mus musculus with 12 samples.

Results

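Interferon-stimulated genes are the genes that cells switch on after they sense interferon, and they hold the products that detect, degrade or block viral nucleic acids and proteins. A total of 46 such genes, responding to type I or type II interferon, were followed by symbol in a table of 39017 genes from sorted mouse bone marrow cells. All 46 passed the filter on low counts, among 16024 genes tested. Together they took 0.343 to 0.691% of the counts of a library.

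Poly(I:C) is a synthetic double-stranded RNA that is read by the endosomal receptor TLR3 and the cytosolic helicases MDA5 and RIG-I, and it makes many cell types secrete type I interferon. The interferon binds IFNAR1 and IFNAR2, the kinases JAK1 and TYK2 pass the signal on, and STAT2 and IRF9 act in the complex ISGF3, which binds the interferon-stimulated response element in the promoters of its target genes. Type II interferon acts through IFNGR1 and IFNGR2 and on gamma-activated sites, and it also induces IRF1. In the bone marrow, interferon is known to draw dormant stem cells into cycle and to raise the surface protein Sca1, which is itself used to sort them.

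The 12 libraries came from LSK cells, the lineage-negative, Sca1-positive and cKit-positive fraction that holds blood stem and progenitor cells, in 4 groups of 3, named here by their labels. All mice were C57BL/6J; Sv/129, and all received poly(I:C) at 2 ug per g of body weight, so no uninjected group was measured and the rise caused by poly(I:C) itself cannot be read from these data. NOTCHWT_TCFWT mice were labelled wild type with a controlled injection. NICD_TCFWT mice carried R26 N1IC lox/+, an inducible active Notch1 domain, with Mx1Cre; NICD_TCFKO mice carried R26 N1IC lox/+, Tcf7 lox/lox and Mx1Cre; NOTCHWT_TCFKO mice carried Tcf7 lox/lox and Mx1Cre. Mx1Cre is a recombinase under the promoter of Mx1, which is an interferon-stimulated gene, and it acts in many cell types besides blood cells. Mx1Cre is listed for every group but NOTCHWT_TCFWT. In each comparison with that group, Mx1Cre and the Tcf7 or N1IC label therefore cannot be told apart. Cells of both NICD groups were also gated as CD45.2+ eGFP+, so that gate and the N1IC label cannot be told apart. The time between injection and sorting is not given in the sources used here. Nothing in the labels ties a replicate to a mouse of its own, so p-values measure the spread between these samples, which may be technical in part. In each group but NOTCHWT_TCFWT, Xist and Y-linked levels differed between libraries, so the libraries of such a group do not all stem from a single mouse.

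Library totals ran from 30453271 to 43790674 counts. Tcf7 stood at 14.3, 10.5 and 19.6 CPM (counts as a share of the scaled library) in NOTCHWT_TCFWT, at 5.05, 4.68 and 6.76 in NICD_TCFWT, at 297, 896 and 615 in NICD_TCFKO and at 0.819, 2.76 and 0.267 in NOTCHWT_TCFKO. Notch1 ranged from 541 to 622 CPM in NOTCHWT_TCFWT, 157 to 195 in NICD_TCFWT, 591 to 887 in NICD_TCFKO and 104 to 197 in NOTCHWT_TCFKO. Tcf7 went against its label in NICD_TCFKO and Notch1 against its label in NICD_TCFWT, so every direction below is one between libraries so labelled. The sample titles carry second names: RAD for NOTCHWT_TCFWT, RNIC-CTRL for NICD_TCFWT, RNIC-Tg for NICD_TCFKO and Tcf7-Tg for NOTCHWT_TCFKO. Whether labels were exchanged between groups was not tested. Kit, the gate gene for cKit, was at 610 CPM or more in every library. The 3 libraries of NOTCHWT_TCFWT were all Xist-high (3547 to 4603 CPM) while each other group held both kinds, and NOTCHWT_TCFKO 1 had both Xist (2156 CPM) and Y-linked transcripts (154 CPM). Sex therefore moved with the wild-type label in part, and its share in the results was not tested.

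The promoters of a few of these genes are shown because the members move in unlike ways below and their DNA letters can be set beside that. RefSeq windows (GRCm38.p6) from 250 bases before to 50 after the start were found for 35 of the 46 genes. The longer motif, GAAA then any 2 bases (NN) then GAAA, searched on both strands and so also as TTTC then NN then TTTC, is the core of the interferon-stimulated response element, and neighbouring matches may overlap. It was present in 18 of these 35 genes (51.4%), against 1079 of all 27025 genes with a window (3.99%). TTCNNNGAA, the core of the gamma-activated site, is its own reverse complement. It was present in 8 of 35 (22.9%) against 9.55% of all genes, and it overlapped a match of the longer motif in Bst2 and Ifitm3.

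First come 120 bases that end just before the RefSeq start, 5′ to 3′ on the strand of the gene, with matches of the longer motif on either strand in capitals, for 3 GTPase genes and Isg15 that were highest in the wild-type libraries and for Rsad2, which was lowest there. Gbp2 spans chr3:142620543-142620662 on the plus strand, Igtp chr11:58199436-58199555 on the plus strand, Irgm1 chr11:48871421-48871540 on the minus strand, Isg15 chr4:156200819-156200938 on the minus strand and Rsad2 chr12:26456453-26456572 on the minus strand. The GENCODE start lies within the stretch of Gbp2 and upstream of the whole stretch of Irgm1, which therefore lie in part and in full inside the GENCODE gene.
Gbp2: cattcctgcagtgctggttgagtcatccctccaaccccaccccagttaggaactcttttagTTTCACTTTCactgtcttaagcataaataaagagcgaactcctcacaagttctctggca
Igtp: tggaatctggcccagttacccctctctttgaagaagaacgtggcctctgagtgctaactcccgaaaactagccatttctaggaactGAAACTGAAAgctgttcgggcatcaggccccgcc
Irgm1: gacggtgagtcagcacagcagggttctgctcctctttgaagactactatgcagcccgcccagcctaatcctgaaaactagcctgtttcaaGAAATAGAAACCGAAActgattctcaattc
Isg15: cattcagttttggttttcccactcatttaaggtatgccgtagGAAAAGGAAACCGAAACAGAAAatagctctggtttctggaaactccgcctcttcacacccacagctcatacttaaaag
Rsad2: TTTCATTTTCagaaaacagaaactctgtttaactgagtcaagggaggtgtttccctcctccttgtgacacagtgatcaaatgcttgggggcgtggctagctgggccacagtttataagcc
Isg15 held 3 overlapping matches, Irgm1 held 2 that overlap, and Gbp2, Igtp and Rsad2 held 1 each, so the letters were shared by genes with opposite patterns.

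Dtx3l (chr16:35939028-35939147 on the minus strand) and Xaf1 (chr11:72301509-72301628 on the plus strand) are shown because both differed strongly between groups while neither motif was in their windows.
Dtx3l: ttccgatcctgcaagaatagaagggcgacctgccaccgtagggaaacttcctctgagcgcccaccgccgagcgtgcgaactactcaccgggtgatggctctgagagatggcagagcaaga
Xaf1: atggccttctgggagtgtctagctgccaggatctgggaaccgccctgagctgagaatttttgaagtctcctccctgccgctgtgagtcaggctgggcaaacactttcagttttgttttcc
The GENCODE start of Dtx3l lies upstream of its whole stretch, which is thus inside the gene in that annotation. The absence of these letters concerns the window only.

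The near-identical neighbours Ifit3 (chr19:34583329-34583528 on the plus strand) and Ifit3b (chr19:34607757-34607956 on the plus strand) are shown over 200 bases because their reads are also hard to separate.
Ifit3: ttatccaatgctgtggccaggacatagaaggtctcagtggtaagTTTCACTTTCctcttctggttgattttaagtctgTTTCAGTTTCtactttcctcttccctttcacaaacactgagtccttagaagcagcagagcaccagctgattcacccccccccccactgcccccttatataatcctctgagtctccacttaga
Ifit3b: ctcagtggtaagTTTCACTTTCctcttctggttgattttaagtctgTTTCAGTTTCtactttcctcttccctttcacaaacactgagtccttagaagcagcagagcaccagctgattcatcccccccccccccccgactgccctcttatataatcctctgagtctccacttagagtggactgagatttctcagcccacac
Aligned to each other, these stretches matched in 166 of 174 columns (95.4%), with both matches of the longer motif in each. The positions of all matches in all members are drawn in the plot of motif positions.

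**Figure D1:**
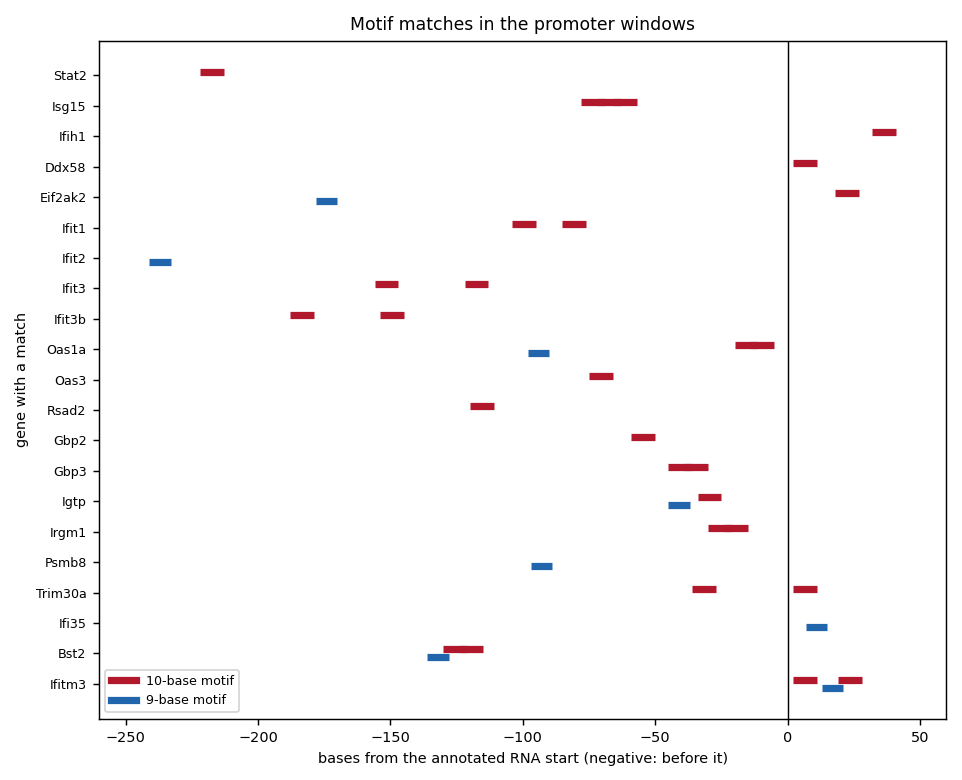
Matches of the 10-base motif, GAAA then NN then GAAA (red, either strand), and the 9-base motif TTCNNNGAA (blue) in the RefSeq promoter windows, by gene; the x axis is the distance in bases from the annotated start. Of the 18 genes with the longer motif, Stat2 carries it furthest upstream (first base at -222) and Ifih1, Ddx58, Eif2ak2 and Ifitm3 carry it after the start alone.

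As a group, the interferon-stimulated genes were highest in the wild-type libraries and lowest in those labelled NOTCHWT_TCFKO. Their summed level stood at 6170, 5068 and 7063 CPM in NOTCHWT_TCFWT, at 4116, 4568 and 3880 in NICD_TCFWT, at 4921, 5567 and 4885 in NICD_TCFKO and at 3646, 3485 and 3955 in NOTCHWT_TCFKO. The range of NOTCHWT_TCFWT thus overlapped with that of NICD_TCFKO and with no other. Ly6e weighed heavily in these sums, at 1126 to 1539 CPM in NOTCHWT_TCFWT and 1264 to 1847 in NICD_TCFKO. Without it the sums of NOTCHWT_TCFWT lay above all others, and those of NICD_TCFKO overlapped with NICD_TCFWT. The group mean was highest in NOTCHWT_TCFWT for 29 of 46 genes (63%), against 25.7% of all genes tested, and lowest in NOTCHWT_TCFKO for 32 (69.6%), against 27.3%. The mean of NICD_TCFKO was highest for 6 genes, 13% against 23.4% of all genes. In bulk RNA, fewer cells of a type and less RNA per cell cannot be told apart. One library carried much of the top: NOTCHWT_TCFWT 3 was the highest of the 12 for 24 genes (52.2%, against 8.76% of all genes), while NOTCHWT_TCFWT 1 was never the highest and NOTCHWT_TCFWT 2 was for 3 genes. NOTCHWT_TCFKO 2 was the lowest library for 19 genes (41.3%, against 14.6%) and NICD_TCFWT 3 for 10 (21.7%, against 6.88%).

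**Figure D2:**
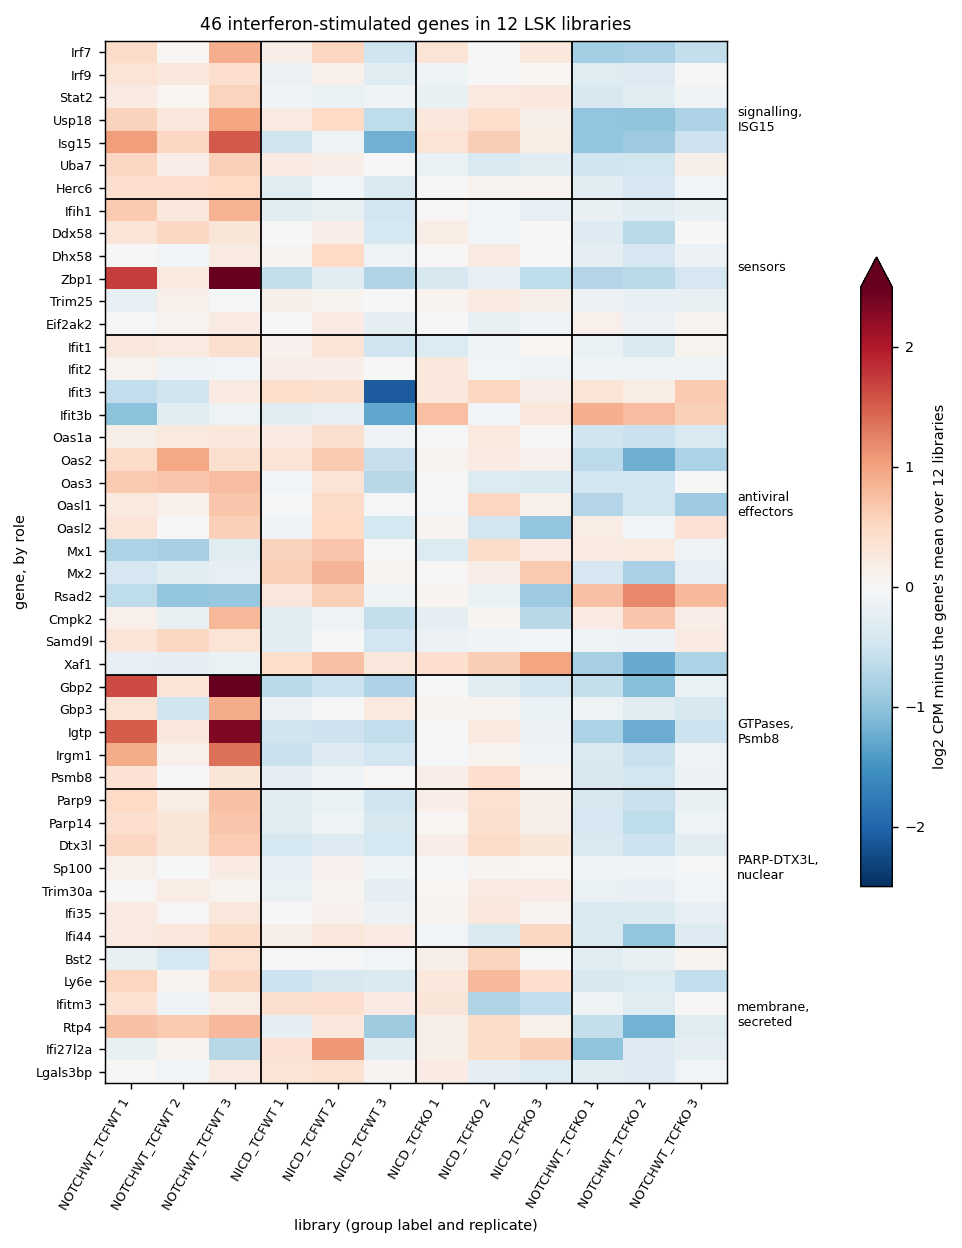
Heat map of the 46 genes (rows, by role) in the 12 libraries (columns, by group), coloured by log2 CPM minus the gene's own mean over the libraries; values above 2.5 take the darkest red. The GTPases and Zbp1 are darkest in NOTCHWT_TCFWT 1 and 3, while Rsad2, Mx1 and Mx2 are pale or blue in NOTCHWT_TCFWT.

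Levels between genes were compared only per length, as mean CPM over 12 libraries per kb of exon. On that scale Ly6e (295), a membrane protein close in sequence to Sca1, Ifitm3 (222), which blocks viral entry at endosomes, Lgals3bp (91.1) and the immunoproteasome subunit Psmb8 (85.9) were the most abundant. The lowest were Ifit3b (0.294), Ifit3 (1.87), Mx2 (2.29), Mx1 (2.51) and Rsad2 (3.2).

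By its labels, NOTCHWT_TCFKO against NOTCHWT_TCFWT asks about loss of Tcf7 in cells without N1IC. Of the 46 genes 27 were lower and 1 higher by edgeR's quasi-likelihood test with Benjamini-Hochberg adjustment over all genes (adjusted p under 0.05), against 21.3% of all genes called, 10.5% of them lower. The median log2 change of the 46 was -0.60, against 0.00 for all genes. In 33 of 46 every NOTCHWT_TCFKO library was below every NOTCHWT_TCFWT library, against 18.6% of all genes. The calls reached every role: 7 of 7 signalling and ISG15 genes, 3 of 6 sensors, 6 of 15 antiviral effectors, 4 of 5 GTPase and immunoproteasome genes, 5 of 7 genes of the PARP-DTX3L group and 2 of 6 membrane and secreted proteins were lower. Of the 28 called genes 12 changed at least 2-fold, and 21 were called under every one of 20 alternative fits. Without NOTCHWT_TCFKO 1, the library with both Xist and Y-linked transcripts, the count was 24, and 14.1% of all genes were called. Set beside the promoters, 9 of the 18 genes with the longer motif were lower and 1 higher (median -0.58), 11 of the 17 without it were lower (-0.55), and 7 of the 11 with no window were lower (-0.86).

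By its labels, NICD_TCFWT against NOTCHWT_TCFWT asks about active Notch1 where Tcf7 is kept, although Notch1 and Tcf7 were both lower in CPM in every NICD_TCFWT library than in any wild-type library. It is a comparison that shares its reference libraries with the one above. Here 15 of 46 genes were lower and 4 higher, against 20.4% of all genes called (9.75% lower, 10.6% higher), with a median log2 change of -0.32. The 4 higher genes, Mx1, Mx2, Rsad2 and Xaf1, were all from the list of antiviral effectors. In 17 of 46 every NICD_TCFWT library lay below every wild-type library and in 4 above, against 21.9% and 22.3% of all genes. At least 2-fold changes were seen in 7 of the called genes, and 11 of the 19 calls held under all 20 alternative fits.

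With the N1IC label set against none in mice labelled Tcf7-deleted (NICD_TCFKO against NOTCHWT_TCFKO), 17 of 46 genes were higher and 1 lower, against 18.4% of all genes called (10.3% higher, 8.06% lower), with a median of 0.32. This count moved with single libraries: it was 8 without NOTCHWT_TCFKO 1 and 9 without NICD_TCFKO 2 or NOTCHWT_TCFKO 2. The share of all genes called fell as well, to 9.77%, 10.1% and 11.8% in these fits. Of the 18 calls 8 held under all alternatives. Between the groups labelled N1IC (NICD_TCFKO against NICD_TCFWT) only Parp9, Dtx3l and Ly6e were called, all higher. That is 3 of 46 or 6.52%, below the 12.4% of all genes (7.25% higher, 5.15% lower). The count rose to 6 without NICD_TCFKO 1 or NOTCHWT_TCFKO 3 and to 5 without NOTCHWT_TCFWT 3 or NOTCHWT_TCFKO 2. In these fits 16.3%, 14.6%, 11.4% and 13% of all genes were called.

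**Figure D3:**
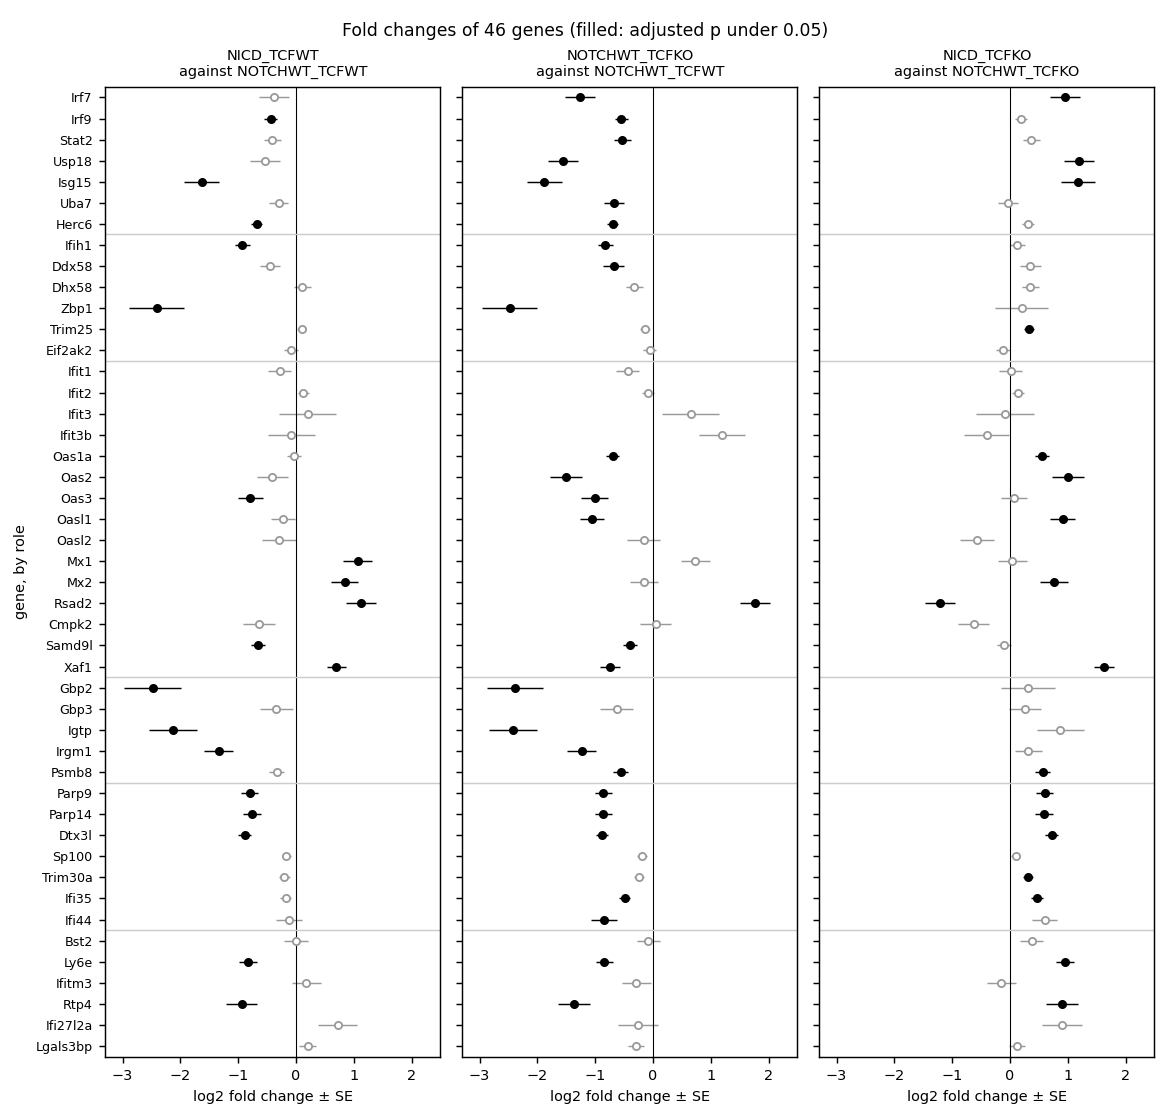
Log2 fold change with its standard error for the 46 genes (by role) in 3 comparisons of 3 against 3 libraries; filled points have an adjusted p under 0.05. Most points lie left of 0 in the first 2 panels, which share NOTCHWT_TCFWT, with Rsad2 to the right in both, and right of 0 in the third.

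When both labels differed, fewer genes passed. In NICD_TCFKO against NOTCHWT_TCFWT 7 were lower (Uba7, Herc6, Ifih1, Zbp1, Oas3, Samd9l and Gbp2) and Xaf1 was higher, against 6.3% of all genes (2.3% lower, 4.01% higher). None of these 8 calls held under all alternatives: the count was 0 without NOTCHWT_TCFWT 1, 2 without NOTCHWT_TCFWT 3 or NICD_TCFKO 2, 1 without NICD_TCFKO 3, 4 without NICD_TCFWT 1 and 5 without NOTCHWT_TCFKO 1. In the same order, 2.23%, 2.38%, 3.81%, 2.68%, 4.6% and 4.88% of all genes were called. In NOTCHWT_TCFKO against NICD_TCFWT Oas1a and Xaf1 were lower, against 2.87% of all genes (1.54% lower, 1.34% higher). The Xaf1 call held under all alternatives. The count was 6 without NICD_TCFWT 3, 5 without NOTCHWT_TCFKO 3, 4 without NICD_TCFKO 3 and 1 without NICD_TCFWT 1 or 2 or NOTCHWT_TCFKO 1 or 2. The shares of all genes called were 1.46%, 12.5%, 2.55%, 0.976%, 1.22%, 1.12% and 1.14%, in that order.

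The interaction asks whether the difference between Tcf7 labels is the same with and without the N1IC label. It was called for 26 of 46 genes, 25 positive and 1 (Rsad2) negative, against 27.4% of all genes called (13.8% positive), with a median of 0.64 on the log2 scale. A positive value means that the change from NICD_TCFWT to NICD_TCFKO lay above that from NOTCHWT_TCFWT to NOTCHWT_TCFKO. In the test of any difference among the 4 groups 29 of 46 genes passed, against 29.7% of all genes.

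Genes of signalling and ISG15 conjugation are given first. Isg15, a ubiquitin-like protein that is attached to other proteins, was at 27.8, 19.3 and 39.3 CPM in NOTCHWT_TCFWT, at 9.55, 12.5 and 5.92 in NICD_TCFWT, at 17.3, 20.8 and 15.4 in NICD_TCFKO and at 6.87, 7.22 and 9.43 in NOTCHWT_TCFKO. All 3 wild-type libraries lay above all 6 of NICD_TCFWT and NOTCHWT_TCFKO, and NICD_TCFKO lay between, overlapping the lowest wild-type library. The log2 change was -1.88 ± 0.30, adjusted p = 0.00177 in NOTCHWT_TCFKO and -1.63 ± 0.30, adjusted p = 0.00405 in NICD_TCFWT, both against NOTCHWT_TCFWT, and 1.18 ± 0.30, adjusted p = 0.0213 in NICD_TCFKO against NOTCHWT_TCFKO. Usp18, the protease that removes Isg15 and damps the type I receptor, was at 32.3, 26.4 and 42.8 CPM in NOTCHWT_TCFWT, at 25.3, 30.7 and 14 in NICD_TCFWT, at 26.2, 29.3 and 24 in NICD_TCFKO and at 11, 10.8 and 12.8 in NOTCHWT_TCFKO. It was lowest in the NOTCHWT_TCFKO libraries, all 3 of which lay below the other 9, though NICD_TCFWT 3 (14 CPM) came close. The log2 change was -1.56 ± 0.26, adjusted p = 0.00224 in NOTCHWT_TCFKO against NOTCHWT_TCFWT and 1.20 ± 0.26, adjusted p = 0.0105 in NICD_TCFKO against NOTCHWT_TCFKO. Irf7, the factor that amplifies type I interferon, was at 61.6, 46.4 and 84.4 CPM in NOTCHWT_TCFWT, at 50.5, 65.2 and 31.8 in NICD_TCFWT, at 56.4, 45.1 and 53.5 in NICD_TCFKO and at 25, 25.7 and 29.5 in NOTCHWT_TCFKO. It shared the pattern of Usp18, with NICD_TCFWT 3 the lowest of the other 9 libraries (-1.26 ± 0.26, adjusted p = 0.00697 against NOTCHWT_TCFWT).

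Herc6, the ligase for Isg15 in mice, was at 82.4, 82.1 and 86.6 CPM in NOTCHWT_TCFWT, at 50.1, 58.8 and 48 in NICD_TCFWT, at 61.3, 65 and 65.8 in NICD_TCFKO and at 50.4, 45.9 and 58.7 in NOTCHWT_TCFKO. The wild-type libraries lay above the other 9, with log2 changes of -0.68 ± 0.10, adjusted p = 0.0011 in NICD_TCFWT and -0.70 ± 0.10, adjusted p = 0.000809 in NOTCHWT_TCFKO. Irf9, the DNA-binding subunit of ISGF3, was at 135, 128 and 141 CPM in NOTCHWT_TCFWT, at 96, 116 and 86.1 in NICD_TCFWT, at 98.4, 106 and 109 in NICD_TCFKO and at 85.5, 84.3 and 105 in NOTCHWT_TCFKO. Its wild-type libraries lay above the rest (-0.55 ± 0.11, adjusted p = 0.00648 in NOTCHWT_TCFKO and -0.44 ± 0.11, adjusted p = 0.0213 in NICD_TCFWT). Stat2, which works with Irf9 in ISGF3, was at 87.1, 78.5 and 112 CPM in NOTCHWT_TCFWT, at 70.2, 68.1 and 70.8 in NICD_TCFWT, at 67.1, 89.6 and 91.2 in NICD_TCFKO and at 57.9, 62.7 and 71.7 in NOTCHWT_TCFKO. It was lower in NOTCHWT_TCFKO (-0.53 ± 0.15, adjusted p = 0.0254), below all wild-type libraries, while NICD_TCFKO overlapped them. Uba7, the enzyme that activates Isg15, had means of 306 ± 47, 248 ± 17.4, 188 ± 14 and 191 ± 51.1 CPM in the same order of groups (SD, n = 3) and was lower in NOTCHWT_TCFKO (-0.68 ± 0.17) and NICD_TCFKO (-0.70 ± 0.17).

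Several of these calls were lost when any 1 of several libraries was left out, without a change of direction. Irf9 in NICD_TCFWT was no longer called without NOTCHWT_TCFWT 1 or 3 or NICD_TCFWT 1 or 3 (adjusted p up to 0.0724 over the alternatives). Stat2 in NOTCHWT_TCFKO was lost without NOTCHWT_TCFWT 1 or 3 or NOTCHWT_TCFKO 1 or 2 (up to 0.0996), and Uba7 there without NOTCHWT_TCFWT 1 or 3 or NOTCHWT_TCFKO 1 (up to 0.065). In NICD_TCFKO against NOTCHWT_TCFKO the Isg15 call was lost without NICD_TCFKO 2 or NOTCHWT_TCFKO 1 or 2 (up to 0.0768), and that of Irf7 without any one library of either group but NOTCHWT_TCFKO 3 (up to 0.0933).

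Among the sensors, Zbp1 and Ifih1 were lower outside the wild-type libraries. Zbp1, a sensor of Z-form nucleic acid that can trigger cell death, was at 51.7, 18.5 and 102 CPM in NOTCHWT_TCFWT, at 10.4, 12.8 and 9.25 in NICD_TCFWT, at 11.9, 13.6 and 10.1 in NICD_TCFKO and at 9.43, 9.8 and 11.7 in NOTCHWT_TCFKO. Even its lowest wild-type library lay above all other 9, but the wild-type libraries differed 5.52-fold among themselves. The log2 change was -2.48 ± 0.48, adjusted p = 0.00551 in NOTCHWT_TCFKO and -2.41 ± 0.48, adjusted p = 0.00677 in NICD_TCFWT; over the alternatives these ranged from -2.87 to -1.77 and from -2.82 to -1.71, and both missed the threshold when only the libraries compared were fitted (adjusted p = 0.0535 and 0.0506). Ifih1, which encodes the poly(I:C) sensor MDA5, was at 109, 83.9 and 127 CPM in NOTCHWT_TCFWT, at 57.5, 60.9 and 49.8 in NICD_TCFWT, at 71.3, 66.1 and 60.5 in NICD_TCFKO and at 61, 58.1 and 61.4 in NOTCHWT_TCFKO. The wild-type libraries again lay above the other 9 (-0.83 ± 0.13, adjusted p = 0.00173 in NOTCHWT_TCFKO and -0.93 ± 0.13, adjusted p = 0.00103 in NICD_TCFWT).

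Ddx58, which encodes the related sensor RIG-I, was at 142, 162 and 140 CPM in NOTCHWT_TCFWT, at 115, 127 and 83.7 in NICD_TCFWT, at 130, 109 and 115 in NICD_TCFKO and at 90.7, 71.2 and 115 in NOTCHWT_TCFKO. It was lower in NOTCHWT_TCFKO (-0.68 ± 0.18, adjusted p = 0.0227), with the groups apart, a call lost without NOTCHWT_TCFWT 1 or 2 or NOTCHWT_TCFKO 1 or 2 (adjusted p up to 0.0773). Trim25, the ligase that activates RIG-I, was at 145, 182 and 160 CPM in NOTCHWT_TCFWT, at 183, 173 and 165 in NICD_TCFWT, at 176, 193 and 185 in NICD_TCFKO and at 150, 144 and 147 in NOTCHWT_TCFKO. It was higher in NICD_TCFKO than in NOTCHWT_TCFKO (0.33 ± 0.08, adjusted p = 0.0213), with no overlap, and lost that call without NICD_TCFKO 2 or 3 or any NOTCHWT_TCFKO library (up to 0.078). Dhx58 (LGP2, 31.1 to 58.9 CPM over the 12 libraries) and Eif2ak2 (the kinase PKR, 80.6 to 109 CPM) were called in no comparison.

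The 15 antiviral effectors did not move as one. Rsad2, which encodes viperin, an enzyme that makes a chain-terminating nucleotide, was at 7.96, 6.25 and 6.37 CPM in NOTCHWT_TCFWT, at 15, 18.5 and 11.6 in NICD_TCFWT, at 12.9, 11 and 6.5 in NICD_TCFKO and at 20.3, 28.4 and 21.6 in NOTCHWT_TCFKO. It was lowest in the wild-type libraries and highest in NOTCHWT_TCFKO, without overlap between these, and NICD_TCFKO 3 alone of the other groups fell within the wild-type range. The log2 change was 1.77 ± 0.26, adjusted p = 0.000992 in NOTCHWT_TCFKO and 1.13 ± 0.26, adjusted p = 0.0114 in NICD_TCFWT against NOTCHWT_TCFWT, the latter lost without NICD_TCFWT 2 (adjusted p = 0.0512). NICD_TCFKO was lower than NOTCHWT_TCFKO (-1.21 ± 0.26, adjusted p = 0.00977). Its neighbour Cmpk2, 12.8 kb away and encoding the kinase that supplies viperin's substrate, was at 18.4 to 52.7 CPM and was called in no comparison (0.05 ± 0.27, adjusted p = 0.924 in NOTCHWT_TCFKO).

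Xaf1, a pro-apoptotic binder of XIAP, was at 40.8, 39.8 and 41.5 CPM in NOTCHWT_TCFWT, at 63.4, 78.1 and 57 in NICD_TCFWT, at 62.3, 71.4 and 92.4 in NICD_TCFKO and at 26.3, 19.6 and 27.1 in NOTCHWT_TCFKO. Wild-type libraries were tightly grouped, both NICD groups lay above them and NOTCHWT_TCFKO below, and only the NICD groups overlapped each other. It was lower in NOTCHWT_TCFKO (-0.74 ± 0.17, adjusted p = 0.00986), higher in NICD_TCFWT (0.70 ± 0.17, adjusted p = 0.014, lost without NICD_TCFWT 2 with adjusted p = 0.0594) and in NICD_TCFKO (0.89 ± 0.17, adjusted p = 0.0127, lost without NOTCHWT_TCFWT 1 with adjusted p = 0.0511). NICD_TCFKO stood 1.63 ± 0.17 above NOTCHWT_TCFKO (adjusted p = 0.000151). Mx1 was at 5.25, 5.09 and 7.28 CPM in NOTCHWT_TCFWT, at 13.5, 14.6 and 9.01 in NICD_TCFWT, at 7.1, 12.5 and 10.5 in NICD_TCFKO and at 10.4, 10.7 and 8.24 in NOTCHWT_TCFKO. It was higher in NICD_TCFWT (1.07 ± 0.25, adjusted p = 0.0137), where each library lay above each wild-type library, and lost the call without NOTCHWT_TCFWT 1 or NICD_TCFWT 2 (up to 0.0595). In NOTCHWT_TCFKO its log2 change was 0.73 ± 0.25, adjusted p = 0.0616. Mx2, its relative, is annotated as a polymorphic pseudogene. It had means of 6.34 ± 0.487, 11.4 ± 2.98, 9.66 ± 2.3 and 5.69 ± 1.15 CPM (SD, n = 3, groups in the same order) and was higher in NICD_TCFWT (0.84 ± 0.24), a call lost without any wild-type library or NICD_TCFWT 1 or 2 (up to 0.123). It was also higher in NICD_TCFKO than in NOTCHWT_TCFKO (0.76 ± 0.24), a call lost under 14 of 20 alternatives. Whether Mx1 or Mx2 makes a working protein in these mice was not measured.

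Oas1a, Oas2, Oas3 and Oasl1 were lower in NOTCHWT_TCFKO, while Oasl2 was not called; the Oas enzymes make the 2-5A messenger that activates RNase L. Oas1a was at 38.6, 41.3 and 41.8 CPM in NOTCHWT_TCFWT, at 40, 46.1 and 32.7 in NICD_TCFWT, at 33.5, 41.4 and 35.6 in NICD_TCFKO and at 24.7, 23.7 and 26.7 in NOTCHWT_TCFKO. The NOTCHWT_TCFKO libraries lay below the other 9 (-0.70 ± 0.12, adjusted p = 0.00314 against NOTCHWT_TCFWT and -0.66 ± 0.12, adjusted p = 0.0187 against NICD_TCFWT), but 47.6% of its 75-base windows are shared with Oas1g, so the level is uncertain. The call against NICD_TCFWT was lost without NICD_TCFWT 1 or 2 or NOTCHWT_TCFKO 1 or 2 (up to 0.0847). Oas2 had means of 105 ± 23.2, 79.3 ± 30.9, 74.6 ± 3.54 and 37.2 ± 7.26 CPM and its neighbour Oas3, 3.24 kb away, of 85.3 ± 3.1, 49.2 ± 16.6, 44.7 ± 6.96 and 42.4 ± 8.19 CPM (SD, n = 3). Oas2 changed by -1.50 ± 0.28 and Oas3 by -1.01 ± 0.23 in NOTCHWT_TCFKO. Oas3 was also lower in NICD_TCFWT (-0.79 ± 0.22), lost without any wild-type library or NICD_TCFWT 1 or 3 (up to 0.0841), where Oas2 was not called (adjusted p = 0.327). Oasl1, a regulator of Irf7 translation, had means of 26.7 ± 5.77, 22.8 ± 4.87, 24 ± 5.03 and 12.8 ± 2.02 CPM and changed by -1.06 ± 0.21 in NOTCHWT_TCFKO. Oasl2, 11 kb from it, was at 29 to 87 CPM and was called in no comparison. In NICD_TCFKO against NOTCHWT_TCFKO, Oas1a (0.56 ± 0.12), Oas2 (1.00 ± 0.28) and Oasl1 (0.91 ± 0.21) were higher; the Oas2 call was lost without 7 single libraries (up to 0.103) and the Oasl1 call without NICD_TCFKO 2 or NOTCHWT_TCFKO 1 (up to 0.0621).

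Samd9l, a growth-restraining antiviral factor, was at 195, 224 and 198 CPM in NOTCHWT_TCFWT, at 129, 153 and 113 in NICD_TCFWT, at 141, 147 and 149 in NICD_TCFKO and at 144, 142 and 180 in NOTCHWT_TCFKO. Wild-type libraries lay above the other 9, with -0.65 ± 0.12, adjusted p = 0.00426 in NICD_TCFWT and -0.40 ± 0.12, adjusted p = 0.0361 in NOTCHWT_TCFKO, the latter lost without 6 single libraries, all wild-type ones among them (up to 0.132). The IFIT proteins, which bind foreign RNA ends, were called in no comparison. Ifit3 was at 1.93, 2.12 and 3.48 CPM in NOTCHWT_TCFWT, at 4.02, 3.91 and 0.703 in NICD_TCFWT, at 3.58, 4.29 and 3.36 in NICD_TCFKO and at 3.75, 3.37 and 4.7 in NOTCHWT_TCFKO. NICD_TCFWT 3 was the lowest and every group but NOTCHWT_TCFWT reached above the highest wild-type library. Ifit3b was at 0.26, 0.43 and 0.49 CPM in NOTCHWT_TCFWT, at 0.434, 0.463 and 0.216 in NICD_TCFWT, at 0.9, 0.508 and 0.647 in NICD_TCFKO and at 1, 0.903 and 0.8 in NOTCHWT_TCFKO. Its 3 NOTCHWT_TCFKO libraries lay above the wild-type ones (1.19 ± 0.40, adjusted p = 0.0558), on 105 against 43 counts in all. The pair share 41.1% and 35.7% of their 75-base windows, and which of them a read belongs to is uncertain. Ifit1 (8.79 to 16.2 CPM) and Ifit2 (46.2 to 60.8 CPM), in the same cluster on chromosome 19, were not called either.

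**Figure D4:**
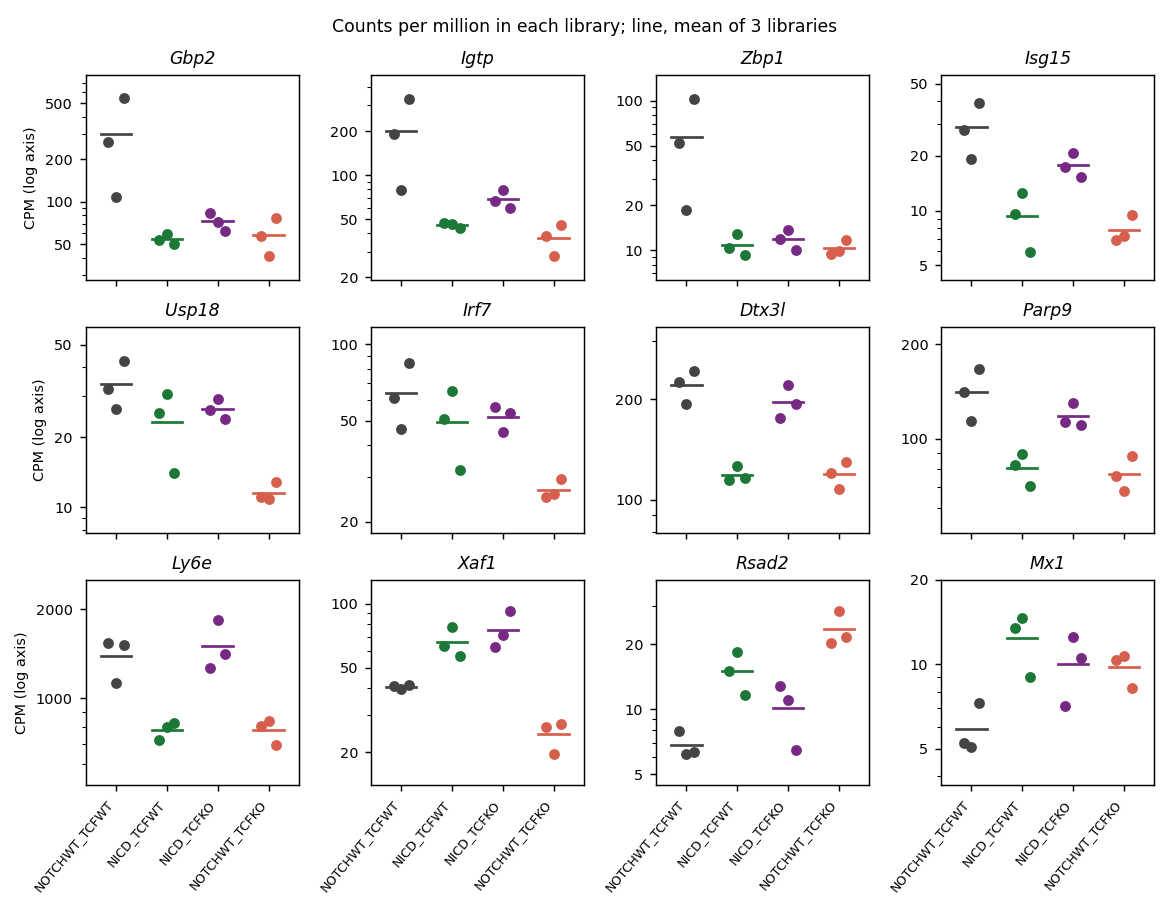
CPM of 12 members in each library (points; log axis), with the mean of 3 libraries as a line, in the 4 groups. Gbp2, Igtp and Zbp1 are high and spread in NOTCHWT_TCFWT; Usp18 and Irf7 are low in NOTCHWT_TCFKO; Dtx3l, Parp9 and Ly6e are high in NOTCHWT_TCFWT and NICD_TCFKO; Rsad2 and Mx1 are lowest in NOTCHWT_TCFWT.

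The GTPases, which attack the vacuoles of intracellular pathogens and respond strongly to type II interferon, held some of the larger changes: Gbp2, Igtp and Irgm1 passed, and Gbp3 did not. Gbp2, a guanylate-binding protein, was at 265, 108 and 540 CPM in NOTCHWT_TCFWT, at 53.7, 59 and 50.5 in NICD_TCFWT, at 82.9, 72.1 and 62.4 in NICD_TCFKO and at 56.8, 41.1 and 76.8 in NOTCHWT_TCFKO. Igtp, also called Irgm3, was at 191, 79.7 and 332 CPM in NOTCHWT_TCFWT, at 47.2, 46.4 and 43.6 in NICD_TCFWT, at 66.8, 78.8 and 60.1 in NICD_TCFKO and at 38.3, 28.2 and 45.9 in NOTCHWT_TCFKO. Irgm1, a regulator of this GTPase family, was at 202, 116 and 273 CPM in NOTCHWT_TCFWT, at 72.2, 84.7 and 75.9 in NICD_TCFWT, at 103, 112 and 100 in NICD_TCFKO and at 81.6, 72.2 and 97.6 in NOTCHWT_TCFKO. In each of the 3 genes all wild-type libraries lay above those of NICD_TCFWT and NOTCHWT_TCFKO, with NOTCHWT_TCFWT 3 highest and NOTCHWT_TCFWT 2 lowest; for Irgm1 and Igtp the latter lay close to the highest NICD_TCFKO library. The median highest-to-lowest ratio of the 5 genes of this role within NOTCHWT_TCFWT was 2.69, against 1.25 for all genes, and 1.17, 1.25 and 1.35 in the other groups.

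In NOTCHWT_TCFKO Gbp2 changed by -2.39 ± 0.49, adjusted p = 0.00804, Igtp by -2.42 ± 0.42, adjusted p = 0.00369 and Irgm1 by -1.23 ± 0.25, adjusted p = 0.00622 against the wild type. In NICD_TCFWT the values were -2.48 ± 0.49, adjusted p = 0.00752 for Gbp2, -2.13 ± 0.42, adjusted p = 0.00702 for Igtp and -1.34 ± 0.25, adjusted p = 0.00443 for Irgm1. Over the alternatives, which include each library left out, Gbp2 ranged from -2.77 to -1.68 and Igtp from -2.78 to -1.85 in NOTCHWT_TCFKO, and from -2.87 to -1.78 and -2.5 to -1.57 in NICD_TCFWT. The Gbp2 call in NOTCHWT_TCFKO was lost when only those libraries were fitted (adjusted p = 0.0694). Gbp3, 47.4 kb from Gbp2, was at 48.3 to 130 CPM and was called in no comparison. Psmb8, the immunoproteasome subunit that shapes peptides for MHC class I, was at 365, 285 and 353 CPM in NOTCHWT_TCFWT, at 244, 264 and 291 in NICD_TCFWT, at 318, 383 and 305 in NICD_TCFKO and at 216, 204 and 258 in NOTCHWT_TCFKO. It was lower in NOTCHWT_TCFKO (-0.56 ± 0.13, adjusted p = 0.0101) and higher in NICD_TCFKO than there (0.57 ± 0.13, adjusted p = 0.0127), in both cases without overlap.

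The nuclear proteins that work together moved in step. Dtx3l, a ubiquitin ligase, was at 226, 193 and 243 CPM in NOTCHWT_TCFWT, at 115, 126 and 116 in NICD_TCFWT, at 176, 220 and 193 in NICD_TCFKO and at 120, 108 and 130 in NOTCHWT_TCFKO. The wild-type and NICD_TCFKO libraries overlapped, and all 6 lay above all 6 of NICD_TCFWT and NOTCHWT_TCFKO. It was lower in NICD_TCFWT (-0.89 ± 0.11, adjusted p = 0.000402) and NOTCHWT_TCFKO (-0.88 ± 0.11, adjusted p = 0.000328) than in the wild type and higher in NICD_TCFKO than in NICD_TCFWT (0.72 ± 0.11, adjusted p = 0.00245) or NOTCHWT_TCFKO (0.72 ± 0.11, adjusted p = 0.00172). Parp9, the ADP-ribosyltransferase that binds Dtx3l, was at 141, 114 and 167 CPM in NOTCHWT_TCFWT, at 82.4, 89.4 and 71 in NICD_TCFWT, at 113, 130 and 111 in NICD_TCFKO and at 75.9, 68.3 and 88.3 in NOTCHWT_TCFKO. Parp14, a related enzyme on the same chromosome, was at 190, 176 and 228 CPM in NOTCHWT_TCFWT, at 115, 130 and 107 in NICD_TCFWT, at 147, 187 and 157 in NICD_TCFKO and at 106, 90.7 and 130 in NOTCHWT_TCFKO. Both split the libraries like Dtx3l, at -0.86 ± 0.15, adjusted p = 0.00239 and -0.86 ± 0.15, adjusted p = 0.00239 in NOTCHWT_TCFKO and -0.80 ± 0.15, adjusted p = 0.00383 and -0.76 ± 0.15, adjusted p = 0.00516 in NICD_TCFWT against the wild type. Parp9 and Dtx3l are head-to-head genes on opposite strands of chromosome 16 whose models overlap, and 9.4% and 8% of their exon bases overlap, so a small part of their reads may be shared.

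Parp9 in NICD_TCFKO against NICD_TCFWT (0.54 ± 0.15, adjusted p = 0.0349) lost its call without any NICD_TCFWT library or NICD_TCFKO 2 or 3 (up to 0.114). Against NOTCHWT_TCFKO, Parp9 (0.60 ± 0.15) and Parp14 (0.59 ± 0.15) were higher in NICD_TCFKO and lost the call without NICD_TCFKO 2 or NOTCHWT_TCFKO 1 or 2 (up to 0.0567 and 0.0652). Ifi35, a partner of the signalling protein NMI, was at 49, 43.2 and 51.8 CPM in NOTCHWT_TCFWT, at 43, 45.6 and 38.4 in NICD_TCFWT, at 44.9, 51.8 and 45.3 in NICD_TCFKO and at 32.4, 33.2 and 36.8 in NOTCHWT_TCFKO. The NOTCHWT_TCFKO libraries lay below the other 9 (-0.49 ± 0.10, adjusted p = 0.00569 against the wild type and 0.47 ± 0.10, adjusted p = 0.0093 for NICD_TCFKO against them). Ifi44 had means of 58.6 ± 5.36, 54.1 ± 2.5, 49.6 ± 16 and 32.6 ± 7.62 CPM (SD, n = 3) and was lower in NOTCHWT_TCFKO (-0.85 ± 0.22), a call lost without NOTCHWT_TCFWT 3 or NOTCHWT_TCFKO 2 (up to 0.0622). Trim30a, a ligase that restrains NF-kB signalling, had means of 158 ± 8.97, 138 ± 16.3, 165 ± 9.75 and 134 ± 7.05 CPM and was higher in NICD_TCFKO than in NOTCHWT_TCFKO (0.31 ± 0.09, lost without 6 single libraries, up to 0.11). Sp100, a component of nuclear bodies, was at 124 to 163 CPM and was called in no comparison.

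Of the membrane and secreted proteins, Ly6e and Rtp4 passed. Ly6e, which blocks the fusion of enveloped viruses, was at 1539, 1126 and 1510 CPM in NOTCHWT_TCFWT, at 724, 801 and 826 in NICD_TCFWT, at 1264, 1847 and 1412 in NICD_TCFKO and at 804, 838 and 693 in NOTCHWT_TCFKO. The wild-type and NICD_TCFKO libraries overlapped and lay above the other 6, with NICD_TCFKO 2 the highest. The log2 change was -0.83 ± 0.15, adjusted p = 0.00416 in NICD_TCFWT and -0.84 ± 0.15, adjusted p = 0.00362 in NOTCHWT_TCFKO, and NICD_TCFKO was higher than NICD_TCFWT (0.94 ± 0.16, adjusted p = 0.00378). Rtp4, a receptor chaperone that binds viral RNA, was at 63.2, 59.4 and 66.3 CPM in NOTCHWT_TCFWT, at 32.3, 45.7 and 20.6 in NICD_TCFWT, at 42.2, 52.1 and 41.5 in NICD_TCFKO and at 25.2, 16.7 and 31 in NOTCHWT_TCFKO. Wild-type libraries lay above the other 9 (-1.37 ± 0.28, adjusted p = 0.00629 in NOTCHWT_TCFKO), and the lower value in NICD_TCFWT (-0.94 ± 0.27, adjusted p = 0.0357) lost its call without any wild-type library, NICD_TCFWT 1 or 3 or NOTCHWT_TCFKO 1 (up to 0.101). Its higher value in NICD_TCFKO than in NOTCHWT_TCFKO (0.90 ± 0.28) was lost under 12 of 20 alternatives.

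Lgals3bp, a secreted galectin ligand, was at 262, 245 and 299 CPM in NOTCHWT_TCFWT, at 323, 335 and 269 in NICD_TCFWT, at 296, 220 and 202 in NICD_TCFKO and at 214, 205 and 243 in NOTCHWT_TCFKO. NICD_TCFWT reached highest, and NOTCHWT_TCFKO lay below both NOTCHWT_TCFWT and NICD_TCFWT while the other pairs of groups overlapped. No comparison called it (adjusted p = 0.0787 for any difference). Ifi27l2a, a small membrane protein, was at 6.29, 7.64 and 4.46 CPM in NOTCHWT_TCFWT, at 9.2, 15.2 and 5.9 in NICD_TCFWT, at 7.98, 9.81 and 10.8 in NICD_TCFKO and at 3.57, 5.74 and 6.04 in NOTCHWT_TCFKO. NICD_TCFKO lay above NOTCHWT_TCFWT and NOTCHWT_TCFKO while the other pairs overlapped, and no comparison called it (adjusted p = 0.0945). Bst2, the tetherin that holds budding virus, was at 32.5 to 64.8 CPM and Ifitm3 at 86.2 to 194 CPM, and neither was called. In all, 14 of the 46 genes were called in no comparison: Dhx58, Eif2ak2, Ifit1, Ifit2, Ifit3, Ifit3b, Oasl2, Cmpk2, Gbp3, Sp100, Bst2, Ifitm3, Ifi27l2a and Lgals3bp.

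Genes that stand upstream of the 46 were read from further lists. Irf1, the factor induced by type II interferon, was at 267, 205 and 280 CPM in NOTCHWT_TCFWT, at 116, 114 and 104 in NICD_TCFWT, at 164, 179 and 165 in NICD_TCFKO and at 96.7, 79.9 and 134 in NOTCHWT_TCFKO. The wild-type libraries lay above the other 9 (-1.17 ± 0.17, adjusted p = 0.00112 in NICD_TCFWT and -1.27 ± 0.17, adjusted p = 0.000575 in NOTCHWT_TCFKO). Receptor chains named by the rule went the other way. Ifngr2, a chain of the type II receptor, was at 13.4, 12.9 and 13.3 CPM in NOTCHWT_TCFWT, at 31.2, 32.2 and 28.7 in NICD_TCFWT, at 22.2, 19 and 21.6 in NICD_TCFKO and at 31.4, 30 and 29.2 in NOTCHWT_TCFKO, higher in NICD_TCFWT (1.22 ± 0.09, adjusted p = 0.0000149) and NOTCHWT_TCFKO (1.19 ± 0.09, adjusted p = 0.0000127) with no overlap. Il10rb rose by 1.32 ± 0.11 and 1.27 ± 0.11 and Ifnar2 by 0.48 ± 0.09 and 0.47 ± 0.09, while Ifnar1 was called in NICD_TCFWT (0.36 ± 0.10) and missed the threshold in NOTCHWT_TCFKO (0.26 ± 0.10, adjusted p = 0.0769).

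Irf8, a factor of monocytes and dendritic cells, was at 7.79, 4.17 and 9.62 CPM in NOTCHWT_TCFWT, at 50.2, 62.7 and 164 in NICD_TCFWT, at 19.1, 73.3 and 82.7 in NICD_TCFKO and at 114, 198 and 63.9 in NOTCHWT_TCFKO. It was higher in NICD_TCFWT (3.67 ± 0.74, adjusted p = 0.00843) and NOTCHWT_TCFKO (4.11 ± 0.75, adjusted p = 0.00499) than in the wild type. Irf5 was called in NICD_TCFKO against NOTCHWT_TCFWT alone among the pairwise comparisons (0.67 ± 0.16). Of 10 sensing and adaptor genes 2 were lower and 2 higher in NOTCHWT_TCFKO against the wild type, where 10.5% of all genes were lower and 10.8% higher: Tlr7, an endosomal RNA sensor, changed by 2.85 ± 0.26, Tlr3, the poly(I:C) receptor, by 0.87 ± 0.24 and the adaptor Myd88 by -0.38 ± 0.07. Of 7 negative regulators 1, the phosphatase Ptpn6, was lower there (-0.37 ± 0.09), a share of 14.3% against 10.5% of all genes, while Ptpn2 was lower in NICD_TCFWT (-0.42 ± 0.08) and Socs1 was called in none (adjusted p = 0.0518 for any difference). The 10 interferon genes themselves were near 0: they summed to at most 0.372 CPM in a library, and the floor of 3 counts is 0.0992 CPM in the shallowest. Ifng was at 0.239 CPM or less and Ifnb1 at 0.133 or less in every library. Interferon made by other cells was not measured.

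Other interferon-induced families are to be read against 9.75% of all genes lower in NICD_TCFWT and 10.5% lower in NOTCHWT_TCFKO. Of 9 further GTPases 6 were lower in NICD_TCFWT and 6 in NOTCHWT_TCFKO than in the wild type and none higher; the median log2 changes were -1.67 and -1.42, with Tgtp1 at -2.60 ± 0.40 and -2.49 ± 0.40, Tgtp2 at -1.67 ± 0.31 and -1.65 ± 0.31 and Irgm2 at -1.73 ± 0.31 and -1.42 ± 0.31. Of 14 MHC class I genes 8 and 11 were lower and none higher, among them Nlrc5, the transactivator of this family (-1.03 ± 0.20 and -1.41 ± 0.21), the peptide transporter Tap1 (-0.46 ± 0.14 and -0.91 ± 0.14) and H2-Q7 (-0.91 ± 0.23 and -2.05 ± 0.24). Of 20 other interferon-stimulated genes tested 6 and 9 were lower and none higher, so most did not pass. The DNA sensor Ifi204 changed by -2.79 ± 0.28 and Aim2 by -0.82 ± 0.10 in NOTCHWT_TCFKO, where the death ligand Tnfsf10 changed by -1.13 ± 0.14. Ly6a, which encodes the gate protein Sca1, was at 120, 101 and 148 CPM in NOTCHWT_TCFWT, at 87.9, 79.4 and 51.8 in NICD_TCFWT, at 111, 120 and 74.8 in NICD_TCFKO and at 33.1, 33.7 and 45.9 in NOTCHWT_TCFKO. NOTCHWT_TCFKO lay below the other 9 libraries (-1.71 ± 0.25, adjusted p = 0.00104 against the wild type), so a gene of the sorting gate differed between groups in the direction of most members.

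Markers of other cell types moved with the groups. The 5 NK cell markers summed to 1333, 816 and 1578 CPM in NOTCHWT_TCFWT, to 136, 160 and 131 in NICD_TCFWT, to 490, 478 and 359 in NICD_TCFKO and to 145, 140 and 101 in NOTCHWT_TCFKO. Gzmb, a granule protease, held most of the wild-type sum (1102, 600 and 1324 CPM), and Nkg7 was at 226, 211 and 201 CPM there against 98.2 to 179 in the other libraries. The defining marker Ncr1 was at 1.38 CPM or less in all 12. NOTCHWT_TCFWT 2 was lowest and NOTCHWT_TCFWT 3 highest in this sum as in Gbp2 and Igtp. The 12 macrophage markers summed to 450, 577 and 358 CPM in NOTCHWT_TCFKO against 39 to 147 in the other libraries, with 10 of 11 tested markers higher there than in the wild type. The 8 granulocyte and monocyte markers summed to 66.7 to 122 CPM in NOTCHWT_TCFWT, 1994 to 6475 in NICD_TCFWT, 409 to 1322 in NICD_TCFKO and 1493 to 8853 in NOTCHWT_TCFKO, highest in NICD_TCFWT 3 and NOTCHWT_TCFKO 2 of their groups, the libraries that were also most often the lowest of the 12 for a member. The 9 T lineage markers summed to 144 to 190 CPM in NOTCHWT_TCFWT and 574 to 1915 in NICD_TCFKO, against 6.12 to 7.03 in NICD_TCFWT and 6.74 to 19.7 in NOTCHWT_TCFKO. Of these markers Cd4 alone was lower in NICD_TCFKO than in NICD_TCFWT (-0.34 ± 0.25, not called). Dtx3l, Parp9, Parp14 and Ly6e also stood higher in NOTCHWT_TCFWT and NICD_TCFKO than in the rest. For those genes, though, NOTCHWT_TCFWT and NICD_TCFKO overlapped, while the T lineage sums of these groups did not. The 6 stem cell markers had the reverse split, with sums of 287 to 416 CPM in NOTCHWT_TCFWT and 184 to 517 in NICD_TCFKO against 789 to 1034 in NICD_TCFWT and 626 to 1129 in NOTCHWT_TCFKO, and Mecom, Hlf and Slamf1 passed the test of any difference. NOTCHWT_TCFKO 2 also stood apart in its sums of erythroid (446 CPM, against 73.1 or less elsewhere) and B lineage markers (27.7 CPM, against 7.06 or less). The part of these cell types in the results was not tested.

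**Figure D5:**
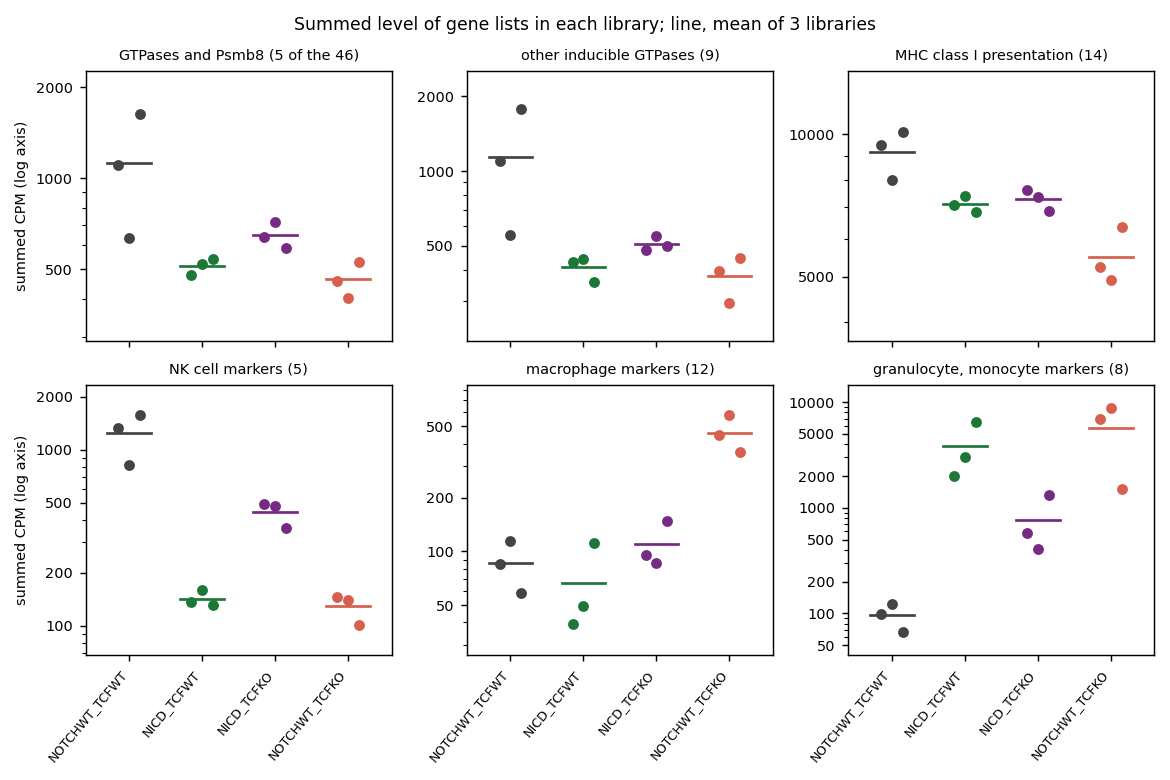
Summed CPM of 6 gene lists in each library (points; log axis) with the mean of 3 libraries as a line. The members' GTPases and Psmb8, other inducible GTPases and NK markers are highest in NOTCHWT_TCFWT 1 and 3, macrophage markers in NOTCHWT_TCFKO, and granulocyte and monocyte markers are lowest in NOTCHWT_TCFWT.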

How the data were processed

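RNA-seq was measured in 12 libraries of sorted LSK cells, 4 groups of 3. Per the labels' protocols, RNA was isolated with PicoPure and single-end reads of 75 nt were sequenced. The submitters' processing notes name cutadapt 1.9.1, HISAT2, featureCounts 1.4.4, edgeR 3.28.0, limma and the build mm10. The values used are raw counts per gene as the authors deposited them; the counting strand is not given in the sources used here. Gene symbols came from GENCODE M21 (GRCm38).

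Libraries were scaled by TMM, genes with low counts were filtered, and 1 model over all 4 groups was fitted with edgeR 4.0.16 (R 4.3.3), with the quasi-likelihood test and Benjamini-Hochberg adjustment over 16024 genes (called: adjusted p under 0.05). Values are CPM on TMM-scaled libraries. The fit was tested on simulated data. The members and lists were chosen with earlier results of these data known. Values in each library are printed for 8 members taken by name (Isg15, Irf7, Stat2, Irf9, Usp18, Mx1, Ifit3 and Ifit3b) and, in each role, for up to 4 members with the smallest p in the test of any difference. Other members are given by group means or ranges. Of each further list up to 3 genes with the smallest such p are named, and Ifnar1, Ifnar2, Irf1, Irf8 and Ly6a; 1 gene of that rule is not reported here. Alternatives were DESeq2 1.42.0, limma-voom (limma 3.58.1), other filters and scalings, a fit of only the groups compared, a replicate block, a library-sheet covariate, a 2-fold threshold and each library left out. The library-sheet covariate set NOTCHWT_TCFWT 3, NICD_TCFWT 3 and NICD_TCFKO 3 apart, because their sample numbers also stand in other titles. It was inferred from those numbers, and no label names a batch. Library totals were 30453271 to 43790674 counts, and Ifit3b had 42 to 105 counts per group. In the shallowest library 3 counts equal 0.0992 CPM.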

Additional observations from a re-analysis of the deposited data

Results flagged for a closer look

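The difference between the Tcf7 labels was not the same with and without the N1IC label for 26 members, by the test of the difference between the 2 differences (edgeR's quasi-likelihood test, Benjamini-Hochberg adjustment over all genes, 3 libraries a group). Adjusted p ran from 0.0000453 for Dtx3l to 0.0395 for Ddx58. Values are log2 interactions, and a positive one means that the step from NICD_TCFWT to NICD_TCFKO lay above the step from NOTCHWT_TCFWT to NOTCHWT_TCFKO. Tcf7 itself was at 297, 896 and 615 CPM in NICD_TCFKO, against that label. Notch1 was at 157 to 195 CPM in NICD_TCFWT, against its label, and at 541 to 622 CPM in NOTCHWT_TCFWT.

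Among GTPases and immunoproteasome genes the value was 3.01 for Igtp, 2.80 for Gbp2, 1.66 for Irgm1 and 0.90 for Psmb8. Signalling and ISG15 genes gave 2.81 for Isg15, 1.74 for Usp18, 1.33 for Irf7, 0.99 for Herc6, 0.78 for Stat2 and 0.63 for Irf9. The sensors Zbp1, Ifih1 and Ddx58 stood at 2.61, 1.06 and 0.80. In the PARP-DTX3L role Dtx3l was at 1.61, Parp9 at 1.4, Parp14 at 1.34, Ifi35 at 0.65 and Trim30a at 0.51. Rtp4 had 1.84 and Ly6e 1.78. Effectors ranged more widely, with Oas2 at 1.41, Oasl1 at 1.14, Xaf1 at 0.93, Oas1a at 0.59 and Samd9l at 0.55. Rsad2 was the single negative value, at -2.34. Of the 26 calls 20 held under all 19 alternatives run for the interaction.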

How the results depend on the processing

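No member value that was called reversed its direction: of 2054 values over 104 named results and their alternatives, 1840 kept their side of the threshold and 214 lost it. With each library left out in turn, the members called numbered 14 to 20 in NICD_TCFWT and 24 to 29 in NOTCHWT_TCFKO against NOTCHWT_TCFWT, 8 to 18 in NICD_TCFKO against NOTCHWT_TCFKO, 2 to 6 in NICD_TCFKO against NICD_TCFWT, 0 to 8 in NICD_TCFKO against NOTCHWT_TCFWT, 1 to 6 in NOTCHWT_TCFKO against NICD_TCFWT, 22 to 29 for the interaction and 24 to 31 for any difference. In the same order, the share of all genes called ran from 12.3 to 22.1%, 13.3 to 23.4%, 9.77 to 20% and 5.57 to 16.3%. For the rest it ran from 2.23 to 7.78%, 0.976 to 12.5%, 21.5 to 28.2% and 20.6 to 36.3%. A further 2-fold threshold left 7, 12, 5, 0, 2, 1 and 16 members in the first 7 of these results, in that order, fewer by construction. It left 9.99%, 11%, 8.13%, 5.14%, 3.92%, 1.61% and 15.7% of all genes. DESeq2 called 8 in NICD_TCFKO against NICD_TCFWT and 9 in NOTCHWT_TCFKO against NICD_TCFWT. Of all genes it called 20% and 10.4%, against 12.4% and 2.87% in the main fit, and the cause was not tested. With only the groups compared in the fit, the member counts there were 7 and 1, and 5 in NICD_TCFKO against NOTCHWT_TCFWT. The shares of all genes were 11.6%, 2.25% and 3.55%. The main fit did not treat replicate numbers as pairs. In deviations from the group means, 6 of 18 same-numbered pairs correlated above 0.1 (range -0.394 to 0.415). With 3 libraries a group, these correlations cannot settle whether the numbers pair samples. Adding the replicate block gave 17, 27, 15, 2, 3, 2, 24 and 27 members called in the order above. The shares of all genes were then 17.2%, 18.1%, 14.6%, 9.68%, 4.59%, 1.82%, 24.7% and 23.6%. Ifit3b and the interferon genes had few counts, and the cause was not tested.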
